A study of Mus musculus with 22 samples.

Results

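The BMP and TGF-beta pathway was followed through 50 genes of 19505 named genes on the array. They were the probe sets whose symbol begins with Bmp, Inhb or Acvr, with Gdf or Smad and a digit, or with Tgfb1, Tgfb2 or Tgfbr, leaving out Gdf15. Each of the 50 symbols had 1 probe set. The genes comprised 18 BMP and GDF ligands, 6 activin and TGF-beta ligands, 13 receptors and co-receptors, 8 SMADs and 5 other proteins that carry a pathway name.

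RNA came from 22 colon tumours that azoxymethane, a chemical carcinogen, had induced in male FVB/N mice, an inbred strain. The 5 formerly obese mice had been switched from a high-fat to a low-fat diet and were given no sulindac. The 6 obese sulindac mice ate a diet with 60% of its energy as fat and received the cyclooxygenase inhibitor sulindac, an anti-inflammatory drug. The 5 obese mice ate the same diet with 60% of energy as fat without the drug, and the low-fat diet of the 6 control mice supplied 10% of energy as fat, also without it. Every mouse had received the carcinogen, and no normal mucosa was analysed here, so all comparisons are between tumours. The questions were how obesity, a return to a low-fat diet and sulindac each bear on the tumours. Mouse numbers are those of the sample titles.

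Ligands of this family are secreted as dimers that bring together type I and type II receptor kinases on the cell surface. The activated type I receptor phosphorylates SMAD1, SMAD5 and SMAD9 for most BMPs, or SMAD2 and SMAD3 for TGF-beta and activins, and these enter the nucleus with SMAD4. SMAD6 and SMAD7 are inhibitory SMADs that the pathway induces against itself. In the colon, BMPs favour differentiation toward the crypt top, stromal cells below the crypt secrete BMP antagonists, and TGF-beta restrains epithelial growth while activating fibroblasts.

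The 22 arrays held log2 levels of 22203 probe sets, with array medians of 6.67 to 6.83. A level is read against the other probe sets on that array, and a difference of 1 log2 unit is a doubling if the deposited scale has base 2. Precision is limited by the number of arrays in each group. Markers of epithelium, which the labelled tissue should hold, averaged between 13.84 and 15.09 on the 22 arrays, with Epcam between 16.67 and 17.43. Drug dose, diet duration and age are not in the labels. Mouse_134, a formerly obese mouse, stood apart: its smooth muscle markers averaged 11.18 and its absorptive colonocyte markers 12.98, each the highest of all 22 tumours. Results that rest on this tumour are given with and without it. In such bulk tissue, fewer cells of a type and less RNA per cell cannot be told apart.

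Of the 50 genes, 31 had a mean level above that of the median probe set, 6.77, and 19 did not. The ligands on the bright side were Bmp2, Bmp3, Bmp4, Bmp5, Bmp6, Bmp7, Gdf11, Inhba, Inhbb, Tgfb1 and Tgfb2. Bmp4, a stromal BMP of the gut wall, ranged from 10.41 to 13.48 over the 22 tumours, and Bmp5 from 9.85 to 12.48. Bmp6 ranged from 6.66 to 9.17. The dim ligands included Gdf2, a circulating ligand made by the liver, between 3.88 and 4.83, and Bmp10, known from the heart, between 3.88 and 5.56. Gdf9 and Bmp15, growth factors of the oocyte, ranged from 4.91 to 6.06 and from 3.84 to 5.12. The skeletal factors Gdf5, Gdf6 and Gdf7 spanned 4.10 to 4.95, 3.94 to 4.96 and 3.78 to 4.42, while Gdf3 and Gdf10 spanned 4.26 to 4.97 and 3.83 to 5.02. Inhbc and Inhbe, activin subunits of the liver, kept within 3.89 to 4.68 and 4.12 to 4.85. The deposited levels do not show which of these dim genes exceeded background.

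Within groups, the SDs of the 13 receptors ran from 0.25 for Tgfbr1 to 0.68 for Tgfbr3. The BMP type I receptor Bmpr1a ranged from 9.93 to 11.28 and the type II receptor Bmpr2 from 13.17 to 14.46, whereas Bmpr1b stayed between 4.32 and 5.34. Acvr1, Acvr1b and Acvr2a, receptor genes named for activin whatever ligand they serve, ranged from 7.84 to 8.73, 8.51 to 9.95 and 9.5 to 11.01. Acvr2b and Acvr1c had means of 5.36 and 4.76. Tgfbr1, the type I receptor for TGF-beta, ranged from 10.93 to 11.87. Its partner Tgfbr2 was more variable, between 10.90 and 13.44. The co-receptor Tgfbr3, or betaglycan, ranged from 4.98 to 7.65, and Tgfbr3l from 7.25 to 9.12. Among the SMADs, Smad1, Smad2, Smad3, Smad4 and Smad5 had SDs within groups of 0.33, 0.25, 0.26, 0.33 and 0.46, against 0.43, 0.52 and 0.50 for Smad6, Smad7 and Smad9. The ligand gene Inhba had a within-group SD of 1.18, at percentile 97.0 of all probe sets, followed by Bmp8b at 1.12, Bmp3 at 1.09, Bmp7 at 1.02, Gdf11 at 0.99 and Tgfb2 at 0.97. Bmp1, the procollagen C-proteinase, had an SD of 0.55 and Tgfbrap1, a receptor-associated protein, of 0.26.

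Promoter windows of 300 bases around the start site were read from RefSeq (GRCm38.p6) for 36 of the 50 genes, in 43 windows. The sites searched on both strands were GGCGCC, a GC-rich element bound by BMP SMADs, CAGAC, the short SMAD element, and GTCTAGAC, the palindrome of that element, which was added after the windows had been read. GGCGCC lay in 10 of 43 windows (23.3%), against 11.9% of all 32851 windows, but the pathway windows also had a median GC content of 65.3%, against 52.7% for all. Windows of the same gene can overlap, and overlapping windows of Smad5 hold the same GGCGCC site, which was counted in each. CAGAC lay in 17 of 43 (39.5%), against 49.6% of all. The palindrome was in 1 of 43 (2.33%), against 0.213% of all, and that window belonged to Smad6. The searched sites do not overlap each other in the windows printed. Smad2, Smad4 and Smad7, the other inhibitory SMAD, had no window among those searched, so whether they carry the palindrome is not known here. Tgfbr2 and Bmp8a are shown as examples with a CAGAC site. Both were among the 5 genes with an unadjusted p under 0.05 by limma after the diet switch. Bmp2k, also among these genes, had 3 GGCGCC sites and 0 CAGAC sites in its window, which is not shown. Smad6 is shown because its window held the palindrome. Capitals mark the searched site, which in Bmp8a is CAGAC on the other strand.
Tgfbr2, chr9:116175314-116175613, minus strand: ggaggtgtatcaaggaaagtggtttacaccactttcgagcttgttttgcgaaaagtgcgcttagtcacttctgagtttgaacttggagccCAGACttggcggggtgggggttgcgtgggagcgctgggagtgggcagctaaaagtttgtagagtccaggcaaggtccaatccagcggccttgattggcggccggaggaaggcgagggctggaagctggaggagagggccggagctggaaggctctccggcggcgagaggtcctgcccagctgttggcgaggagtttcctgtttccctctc
Bmp8a, chr4:123343203-123343502, minus strand: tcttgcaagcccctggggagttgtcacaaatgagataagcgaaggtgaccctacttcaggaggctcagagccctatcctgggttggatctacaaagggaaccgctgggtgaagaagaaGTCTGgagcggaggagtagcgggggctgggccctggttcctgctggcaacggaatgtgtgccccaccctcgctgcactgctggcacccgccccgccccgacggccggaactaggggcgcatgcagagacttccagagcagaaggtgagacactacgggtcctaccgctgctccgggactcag
Smad6, chr9:64022010-64022309, minus strand: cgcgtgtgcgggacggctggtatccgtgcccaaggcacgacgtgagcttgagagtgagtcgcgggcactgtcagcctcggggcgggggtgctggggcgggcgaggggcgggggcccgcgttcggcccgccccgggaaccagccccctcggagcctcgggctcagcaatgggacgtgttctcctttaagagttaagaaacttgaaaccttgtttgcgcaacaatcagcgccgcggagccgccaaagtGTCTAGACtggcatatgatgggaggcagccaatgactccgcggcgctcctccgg
The sites begin at position -160 in Tgfbr2, -132 in Bmp8a and -4 in Smad6, counted from the start site. These letters describe the windows and were not tested for binding.

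In obese against control tumours no pathway gene passed the test. Their median difference was 0.01 log2 units, with 26 genes higher and 24 lower, beside a median of -0.004 over all 22203 probe sets. By limma with Benjamini-Hochberg adjustment over all probe sets, 0 of 50 genes passed an adjusted p of 0.05, as did 0% of all probe sets, and the smallest adjusted p among the 50 was 0.9998. At an unadjusted p under 0.05 there was 1 gene of 50 (2%), beside 4.03% of all probe sets. No gene of the 50 separated the groups completely, beside 0.383% of all probe sets.

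Gdf9 was that gene. Its level was 5.61, 6.0, 5.20, 5.84 and 6.06 in the 5 obese tumours, against a lowest of 4.91, a median of 5.30 and a highest of 5.65 in the 6 control tumours. Mouse_96 and Mouse_107 lay within the control range and the other 3 obese tumours above it. The difference was 0.48 ± 0.19 (SE), with an adjusted p of 0.9998 by limma and p = 0.0368 by a two-sided exact permutation test of this gene alone.

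Smad7, the inhibitory SMAD that acts on TGF-beta and BMP receptors, was tightly grouped in the obese tumours, at 7.69, 7.85, 7.98, 7.84 and 7.67. In control tumours it ranged from 7.60 over a median of 8.39 to 8.69. The obese tumours lay below 5 of the 6 control tumours, the exception being Mouse_32. Obese tumours averaged 7.81 ± 0.13 and control tumours 8.31 ± 0.38 (SD, n = 5 and 6), which differ by -0.50 ± 0.30 (SE) with an adjusted p of 0.9998 by limma and an exact permutation p of 0.026.

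Bmper, a secreted protein that binds BMPs outside the cell, had levels of 7.39, 6.67, 7.37, 6.88 and 7.52 in obese tumours, against 5.77, 6.41 and 7.77 as the lowest, median and highest in control tumours. All 5 obese values lay within the control range and above its median. The difference was 0.61 ± 0.33 (exact permutation p 0.121). Acvrl1, a type I receptor known mainly from endothelium, stood at 8.82, 8.85, 8.09, 8.18 and 9.01 in obese tumours, against 7.77, 7.96 and 8.74 as the lowest, median and highest in control tumours. Of the obese tumours, 3 lay above all control tumours, and the difference was 0.44 ± 0.25 (exact permutation p 0.128). Endothelial markers had the same sign here: 7 of 7 were higher in obese tumours. Their list level was 7.93 to 9.06, against 7.74 to 9.0 in control tumours. Fibroblast (7 of 7), macrophage (6 of 6), neutrophil (6 of 6) and B and plasma cell markers (5 of 5) were also higher. Absorptive colonocyte (8 of 8), goblet cell (6 of 6) and adipocyte markers (5 of 5) were lower. The part of any of these cell types in the Acvrl1 value was not tested.

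Inhbb, which encodes the activin B subunit, had levels of 8.64, 8.74, 8.06, 8.30 and 9.59 in obese tumours, against 7.66, 7.99 and 9.16 as the lowest, median and highest in control tumours. All obese tumours but Mouse_113 lay within the control range, and the difference was 0.49 ± 0.35 (exact permutation p 0.197). Other differences in this comparison were -0.43 ± 0.32 for Bmp8a, 0.63 ± 0.54 for Tgfb2 and -0.24 ± 0.20 for the type II receptor Acvr2b. The best known ligands lay close together. Bmp4 differed by 0.03 with a 95% interval of -0.77 to 0.82, Tgfb1 by -0.09 (-0.52 to 0.34), Bmp2 by 0.21 (-0.63 to 1.06) and Inhba, which encodes the activin A subunit, by 0.16 (-1.21 to 1.54). These intervals allow differences of more than 1.5-fold either way for Bmp2, Bmp4 and Inhba. For Smad9, the third BMP SMAD, both groups averaged 5.24.

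**Figure D1:**
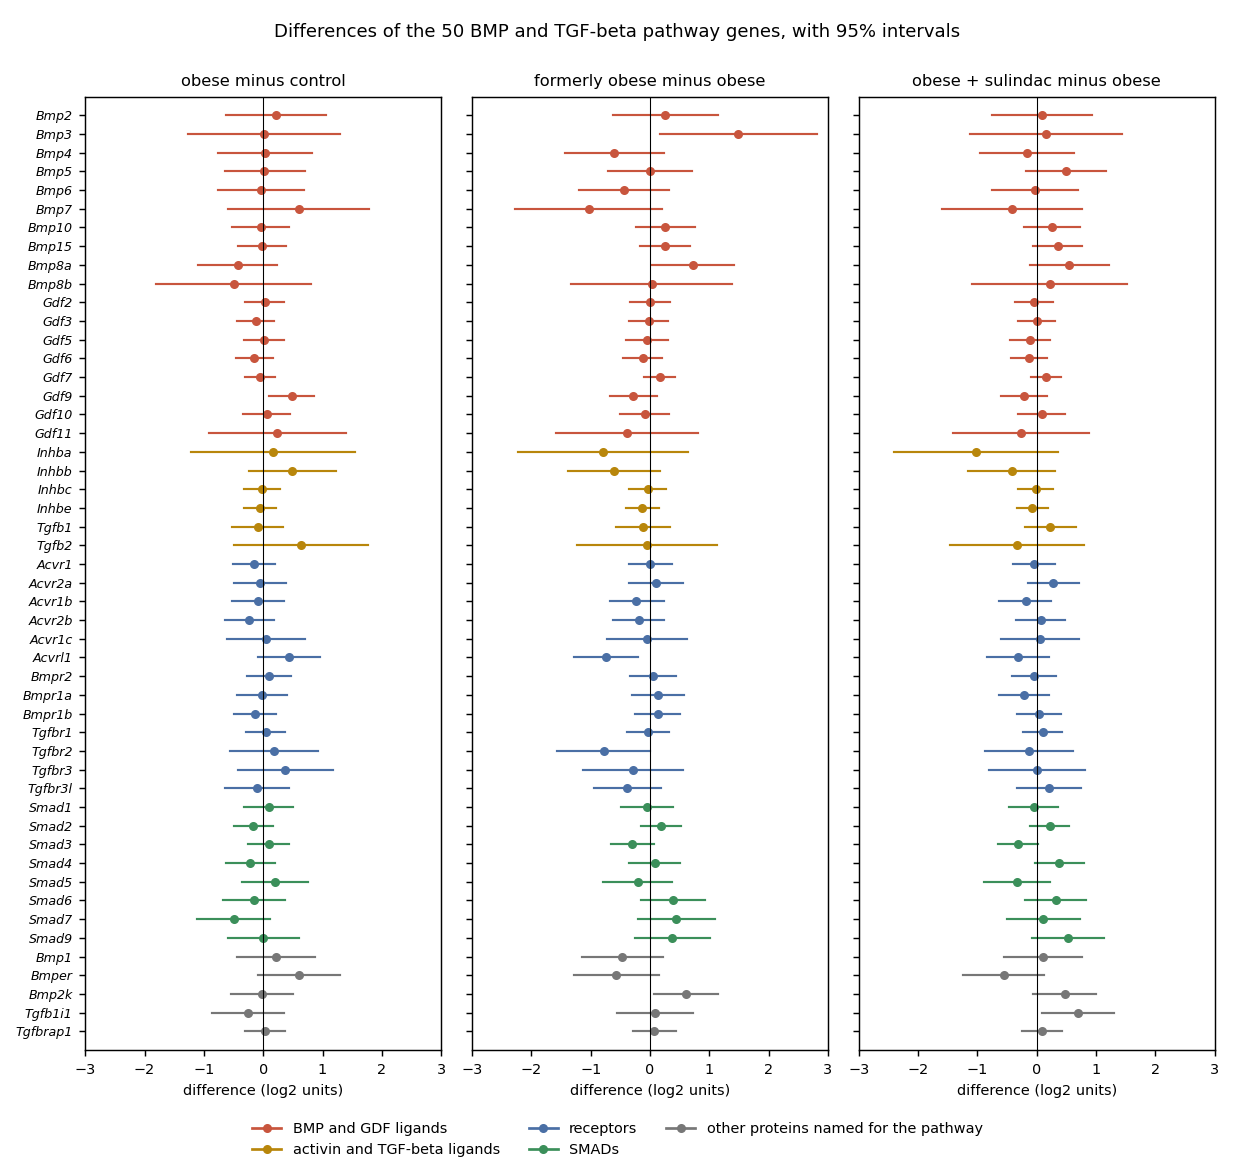
Difference of each of the 50 pathway genes in log2 units, as a point with its 95% confidence interval from limma, in 3 panels for obese minus control, formerly obese minus obese and obese sulindac minus obese tumours; colours mark the roles. Most intervals include 0; in the middle panel Bmp3 lies at 1.49, Acvrl1 at -0.75 and Tgfbr2 at -0.78.

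Among formerly obese against obese tumours, 22 of the 50 genes were higher and 28 lower, with a median difference of -0.04 beside 0.004 over all probe sets. By limma 0 of 50 passed the adjusted threshold, as did 0% of all probe sets, and the smallest adjusted p among the 50 was 0.866. At an unadjusted p under 0.05 there were 5 genes of 50 (10%), 3 higher and 2 lower, beside 5.69% of all probe sets, and without Mouse_134 there were 2, beside 4.54%. The 6 activin and TGF-beta ligands were all lower, by 0.04 to 0.79 with a median of -0.12, and 0 of the 6 had an unadjusted p under 0.05. Inhbc and Inhbe among them were dim, with means of 4.27 and 4.35, and the Tgfb1 difference rounded to 0 without Mouse_96. Over all probe sets 50.7% were higher. Of the 13 receptors 8 were lower, and of the 8 SMADs 5 were higher, with a median of 0.14. This comparison and that of obese with control tumours share the 5 obese arrays, so their values are not independent.

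Acvrl1 had the smallest unadjusted p of the 50 genes. Its levels in formerly obese tumours were 8.41, 7.96, 7.53, 7.99 and 7.31, against 8.82, 8.85, 8.09, 8.18 and 9.01 in obese tumours. Of the formerly obese tumours 4 were lower than any obese tumour, the exception being Mouse_134. Formerly obese tumours averaged 7.84 ± 0.43 and obese tumours 8.59 ± 0.42 (SD, n = 5 each), which differ by -0.75 ± 0.26 (SE) with a 95% interval of -1.29 to -0.21 and an adjusted p of 0.866 by limma. The difference was between -0.89 and -0.62 when any single mouse was left out, and its exact permutation p was 0.0397.

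Endothelial and fibroblast markers had the same sign. Of 7 endothelial markers 6 were lower in formerly obese tumours, with a list level of 7.27 to 9.15 against 7.93 to 9.06 in obese tumours. Of 7 measured fibroblast markers 6 were lower, with list levels of 9.91 to 11.75 against 10.98 to 11.62. Macrophage (6 of 6) and neutrophil markers (6 of 6) were lower as well. Absorptive colonocyte (8 of 8), goblet cell (6 of 6) and squamous epithelium markers (6 of 6) were higher. The part of any of these cell types in the Acvrl1 difference was not tested. Eng, an endothelial co-receptor that works with the Acvrl1 protein, differed by -0.85 ± 0.33, and by -0.65 without Mouse_134.

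Tgfbr2, the type II receptor of TGF-beta, stood at 11.30, 11.82, 11.54, 11.01 and 12.58 in formerly obese tumours, against 11.96, 12.51, 12.35, 12.68 and 12.65 in obese tumours. Again 4 of 5 formerly obese values were under the whole obese range, and here the exception was Mouse_152. The difference was -0.78 ± 0.37 with an adjusted p of 0.874 by limma and an exact permutation p of 0.0397, and it lay between -1.01 and -0.62 without any single mouse. Macrophage markers were lower in 6 of 6 cases, with list levels of 8.97 to 10.44 in formerly obese and 9.40 to 10.34 in obese tumours; Mouse_152 had the highest level of its group. Their part in the Tgfbr2 difference was not tested. Its partner receptor Tgfbr1 differed by -0.03, with an interval of -0.38 to 0.32.

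Bmp3, a family member that antagonises other BMPs in bone, had levels of 12, 7.17, 7.10, 7.08 and 7.06 in formerly obese tumours, against 6.10, 6.32, 6.88, 6.75 and 6.92 in obese tumours. It was the only gene of the 50 whose groups did not overlap, beside 0.878% of all probe sets. The value of 12 came from Mouse_134, and the other 4 formerly obese tumours lay between 7.06 and 7.17. The difference was 1.49 ± 0.64 with all tumours (adjusted p 0.866 by limma) and 0.51 ± 0.25 without Mouse_134. The two-sided exact permutation p was 0.00794, the smallest that 5 against 5 tumours can give. Every gene without overlap between these groups gets this value, so it only restates the lack of overlap.

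Bmp2k, a kinase induced by BMP2 in mouse bone-forming cells, had levels of 12.92, 13.49, 13.12, 13.23 and 12.88 in formerly obese tumours, against 13.32, 12.22, 12.33, 12.77 and 11.97 in obese tumours. All obese tumours except Mouse_96 lay below all formerly obese tumours. The difference was 0.61 ± 0.26 (adjusted p 0.866 by limma, exact permutation p 0.0635). Bmp8a, one of a pair of closely related ligand genes whose probes may not separate them fully, stood at 7.46, 6.26, 6.10, 7.28 and 5.85 in formerly obese tumours and at 5.09, 6.82, 5.77, 6.16 and 5.47 in obese tumours. Mouse_134 and Mouse_150 lay above the obese tumours and the rest overlapped them. The difference was 0.73 ± 0.34 (adjusted p 0.872 by limma, exact permutation p 0.127), and 0.51 ± 0.33 without Mouse_134. For its neighbour Bmp8b the difference was 0.03 ± 0.65.

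**Figure D2:**
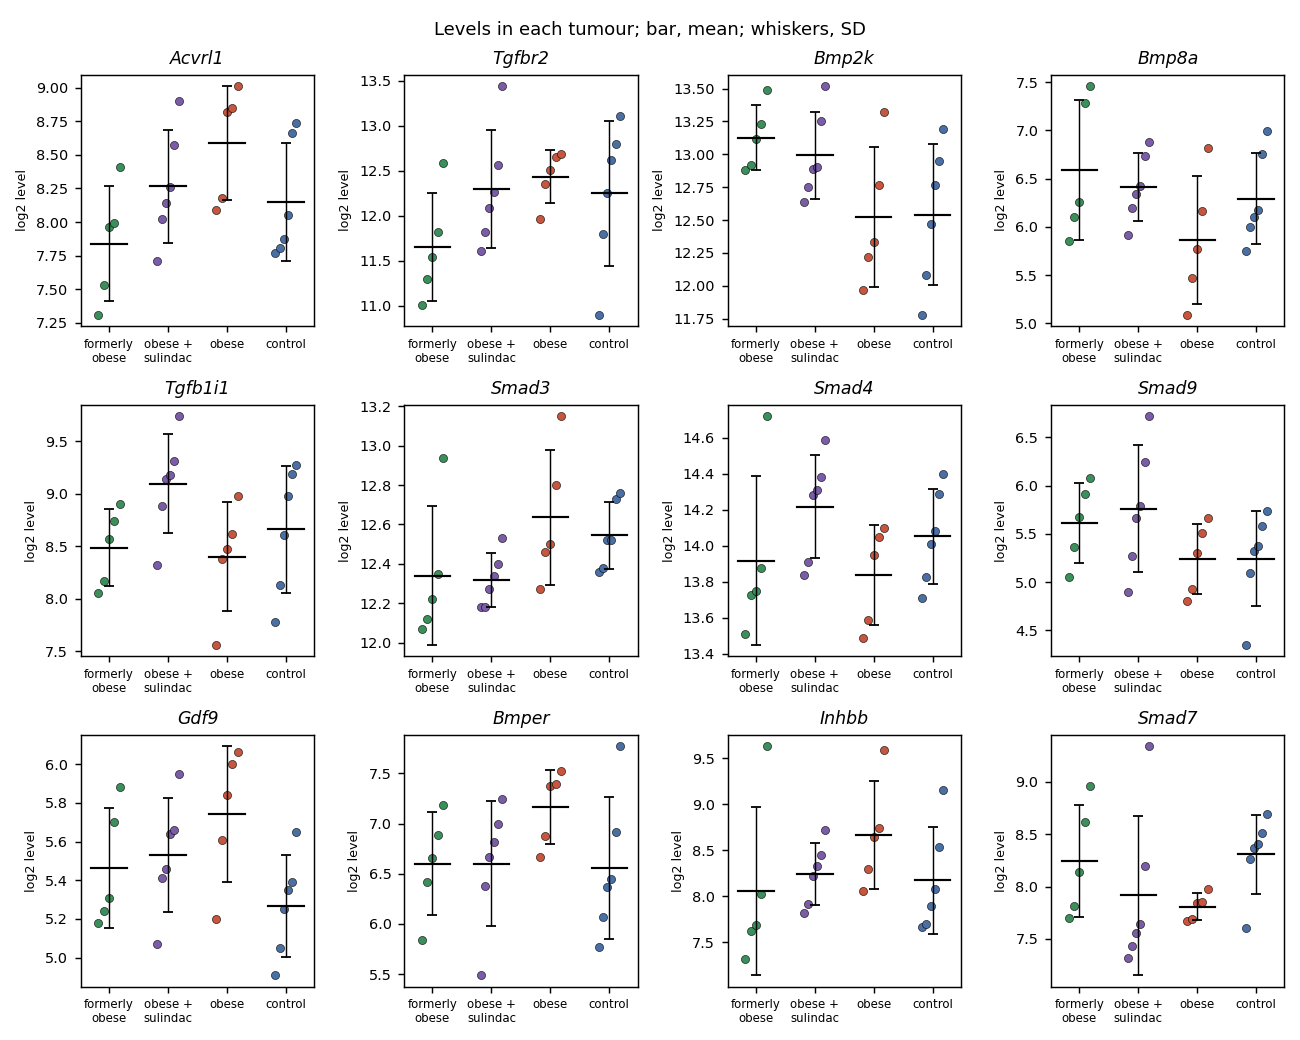
Log2 level of 12 pathway genes in each tumour (points), with group mean (bar) and SD (whiskers), for formerly obese (n = 5), obese sulindac (n = 6), obese (n = 5) and control (n = 6) tumours; each panel has its own vertical scale. Acvrl1 and Tgfbr2 lie lower in 4 of 5 formerly obese tumours than in any obese tumour, and Smad7 lies within 7.67 to 7.98 in the obese tumours.

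Among other ligands Bmp7 differed by -1.03 ± 0.60, Inhba by -0.79 ± 0.69, Inhbb by -0.61 ± 0.37 and Bmp4 by -0.60 ± 0.40. These values depended on single tumours. Without Mouse_134 the Bmp4 difference was -0.21 and the Bmp7 difference -0.64, while without Mouse_140 the Bmp7 difference was -1.54 and the Inhba difference -1.45. Bmp2 differed by 0.26 ± 0.43 with Mouse_140 and by -0.24 without it. Tgfb1 differed by -0.12 ± 0.22, with an interval of -0.57 to 0.33. Smad3, the SMAD of TGF-beta and activin, differed by -0.30 ± 0.17, and Smad7 by 0.44 ± 0.31 with 3 of 5 formerly obese tumours above every obese tumour. Absorptive colonocyte markers were higher in 8 of 8 cases, with list levels of 8.81 to 12.98 in formerly obese and 7.26 to 10.21 in obese tumours, and their part in these values was not tested.

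With sulindac, 26 of the 50 genes were higher and 24 lower than in obese tumours without the drug, with a median difference of 0.02 beside 0.009 over all probe sets. By limma 0 of 50 passed the adjusted threshold, as did 0% of all probe sets, and the smallest adjusted p among the 50 was 0.719. At an unadjusted p under 0.05 there was 1 gene (2%), beside 6.55% of all probe sets. None of the 50 separated the groups completely, beside 0.676% of all probe sets. This comparison uses the same 5 obese arrays again.

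That gene was Tgfb1i1, which encodes a focal adhesion protein induced by TGF-beta and abundant in smooth muscle. Its levels ran from 8.32 over a median of 9.16 to 9.74 in the 6 obese sulindac tumours, against 8.47, 7.56, 8.98, 8.38 and 8.62 in obese tumours. Of the sulindac tumours 4 lay above every obese tumour, with Mouse_124 and Mouse_129 inside the obese range. Sulindac tumours averaged 9.10 ± 0.47 and obese tumours without it 8.40 ± 0.52 (SD, n = 6 and 5), which differ by 0.69 ± 0.29 (SE) with an interval of 0.09 to 1.30 and an adjusted p of 0.719 by limma. For Tgfb1i1 the exact permutation p was 0.0433. Smooth muscle markers were higher in 7 of 8 cases, with list levels of 8.64 to 9.85 against 8.45 to 9.23. Absorptive colonocyte (8 of 8), goblet cell (6 of 6) and squamous epithelium markers (6 of 6) were also higher. Endothelial markers were lower in 4 of 7 cases and neutrophil markers in 4 of 6. The part of any of these cell types in the Tgfb1i1 difference was not tested.

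Smad4, the SMAD shared by both branches, ran from 13.84 over 14.30 to 14.59 in sulindac tumours (lowest, median and highest), against 13.59, 13.95, 14.05, 14.10 and 13.49 in obese tumours. The sulindac tumours above all obese tumours numbered 4 of 6, and the difference was 0.38 ± 0.20. Smad3 ran from 12.18 over 12.31 to 12.53 in sulindac tumours, against 13.15, 12.46, 12.80, 12.50 and 12.27 in obese tumours. The sulindac values were the more tightly grouped, with an SD of 0.14 against 0.34, and the difference was -0.32 ± 0.16. Smad9 ran from 4.90 over 5.73 to 6.72 in sulindac tumours, against 5.51, 4.93, 5.66, 5.30 and 4.81 in obese tumours. Only part of the sulindac group, 3 of 6 tumours, lay above the obese range, and the difference was 0.52 ± 0.29. By limma the adjusted p values of these 3 SMADs were 0.792, 0.789 and 0.808. Their exact permutation p values were 0.0563, 0.0519 and 0.158.

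Bmp2k ran from 12.64 over 12.90 to 13.52 in sulindac tumours, and its difference from obese tumours was 0.47 ± 0.25 (exact permutation p 0.115). The values for formerly obese tumours above set it against the same 5 obese arrays. Bmp15 differed by 0.35 ± 0.20, Bmp8a by 0.55 ± 0.32 and Bmper by -0.56 ± 0.33. The activin A gene Inhba averaged 11.60 ± 1.04 in sulindac and 12.63 ± 1.03 in obese tumours, a difference of -1.03 ± 0.66, and of -1.44 without Mouse_114. Intervals for the main ligands and Smad7 were -0.76 to 0.93 for Bmp2, -0.96 to 0.63 for Bmp4, -0.20 to 0.66 for Tgfb1 and -0.51 to 0.73 for Smad7, around differences of 0.08, -0.16, 0.23 and 0.11.

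In the F test over all 4 groups 0 of 50 genes had an adjusted p under 0.05 by limma, as did 0% of all probe sets, and 0 had an unadjusted p under 0.05, beside 6% of all probe sets. Formerly obese against control tumours gave 3 genes at an unadjusted p under 0.05, beside 5.54% of all probe sets, and 0 after adjustment. They were Bmp3 at 1.5 ± 0.61, which was 0.52 without Mouse_134, Bmp2k at 0.59 ± 0.25 and Acvr2b at -0.43 ± 0.20. Formerly obese against obese sulindac tumours also gave 3, beside 6.62% of all probe sets, and 0 after adjustment. These were the co-receptor gene Tgfbr3l at -0.60 ± 0.26, Tgfb1i1 at -0.61 ± 0.29 and Bmp3 at 1.33 ± 0.61, which was 0.35 without Mouse_134. Obese sulindac against control tumours gave 0 of 50 at either threshold, beside 6.63% of all probe sets at the unadjusted one.

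Around the 50 genes, 75 measured genes in 7 lists of other ligands, antagonists, latency proteins, co-receptors, regulators and target genes were read in the same fit, and 0 passed after adjustment in any of the 3 main comparisons. At an unadjusted p under 0.05 there were 1 higher and 2 lower of the 75 in obese against control tumours, beside 4.03% of all probe sets. In formerly obese against obese tumours 3 were higher and 8 lower, beside 5.69%, and in obese sulindac against obese tumours 2 were higher and 1 lower, beside 6.55%. Their median differences in these comparisons were -0.01, -0.02 and 0. Of 8 BMP-induced genes 2 were higher in obese than in control tumours (median -0.24), 5 in formerly obese than in obese tumours (0.07) and 6 in obese sulindac than in obese tumours (0.26). Ski, a nuclear corepressor of SMADs, averaged 9.89 ± 0.42 in formerly obese tumours, against 9.18 ± 0.22 in obese tumours, and all 5 formerly obese tumours lay above all obese ones (0.72 ± 0.23), beside 0.878% of probe sets without overlap. Against the same obese tumours, the sulindac tumours averaged 9.77 ± 0.27 and all 6 lay above (0.59 ± 0.22), beside 0.676%. In obese against control tumours Ski differed by -0.47 ± 0.22. Smurf2, a ubiquitin ligase that removes receptors and SMADs, averaged 11.09 ± 0.14 in obese and 11.69 ± 0.26 in control tumours without overlap (-0.60 ± 0.20), beside 0.383%. Both genes have adjusted p values of at least 0.698 by limma in these comparisons.

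Tgfb3, a TGF-beta ligand outside the 50, averaged 6.52 ± 0.66 in formerly obese and 7.94 ± 0.58 in obese tumours. Its differences were 0.37 ± 0.43 in obese against control and -0.57 ± 0.43 in obese sulindac against obese tumours. Grem1, the stromal BMP antagonist, averaged 9.53 ± 1.75 in formerly obese and 11.87 ± 1.2 in obese tumours, a difference of -2.35 ± 0.91, and of -3.09 without Mouse_140. In obese against control tumours Grem1 differed by 1.03 ± 0.87, and in obese sulindac against obese tumours by -1.56 ± 0.87. Id1, a standard BMP target, averaged 16.17 ± 0.30 in formerly obese and 15.52 ± 0.60 in obese tumours (0.65 ± 0.30). Its differences were -0.51 ± 0.29 in obese against control and 0.46 ± 0.29 in obese sulindac against obese tumours. The latent TGF-beta binding protein gene Ltbp3 differed by -0.75 ± 0.29 after the diet switch. Chrdl2, a chordin-like BMP antagonist, differed by 0.32 ± 0.15 in obese against control tumours, and Tgfbi, a matrix protein induced by TGF-beta, by 0.56 ± 0.24 with sulindac. Il11, a cytokine that TGF-beta induces in fibroblasts, averaged 6.41 ± 1.64 in sulindac and 10.01 ± 1.56 in obese tumours, with an adjusted p of 0.588 by limma. That difference of -3.60 was -4.20 without Mouse_114 and -3.08 without Mouse_96.

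**Figure D3:**
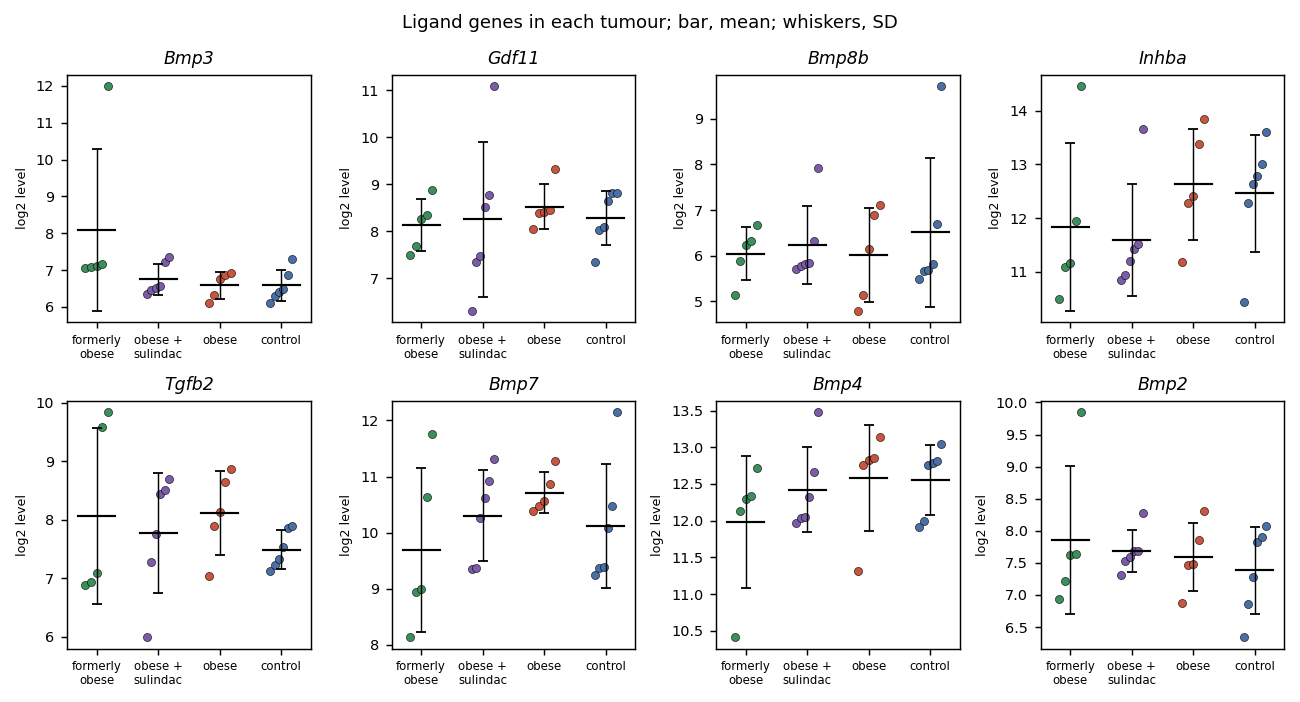
Log2 level of 8 ligand genes in each tumour (points), with group mean (bar) and SD (whiskers), for formerly obese (n = 5), obese sulindac (n = 6), obese (n = 5) and control (n = 6) tumours; each panel has its own vertical scale. Single tumours stand far above the rest for Bmp3 (12), Gdf11 (11.10) and Bmp8b (9.72).

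For several ligands single tumours stood far from the rest of their group, in the plot of 8 ligand genes by tumour. Gdf11, a relative of myostatin, reached 11.10 in Mouse_X, while the other 5 sulindac tumours lay between 6.30 and 8.78. Bmp8b reached 9.72 in control Mouse_30, beside 5.50 to 6.69 in the other 5 control tumours. Inhba reached 13.65 in Mouse_114, beside 10.85 to 11.52 in the other 5 sulindac tumours, and 14.46 in formerly obese Mouse_140. Mouse_140 also had the highest Bmp2 level of all tumours, 9.85, and the highest Tgfb2 level, 9.84. In Mouse_146 Tgfb2 was 9.58, and in the other 3 formerly obese tumours it lay between 6.89 and 7.09. Mouse_140 had the highest fibroblast and endothelial marker levels of its group, 11.75 and 9.15, and their part in its ligand levels was not tested.

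Across all 22 tumours the 31 brighter pathway genes were set against 6 cell type marker lists, which gave 186 relations. By Pearson's r with 100000 permutations, 11 relations passed at 0.05 after Benjamini-Hochberg adjustment over all 186. By Spearman's rho 0 of the 186 passed, with a smallest adjusted p of 0.0691. Bmp1 followed the endothelial markers with r = 0.70 and rho = 0.67 (permutation p 0.00036 and 0.00098, adjusted 0.0465 and 0.0691), and r = 0.68 without Mouse_140 and Mouse_146. It also followed the fibroblast markers with r = 0.63 and rho = 0.64 (permutation p 0.00124 and 0.00165, adjusted 0.0465 and 0.0691). Inhbb ran against the absorptive colonocyte markers with r = -0.66 and rho = -0.61 (permutation p 0.00073 and 0.0031, adjusted 0.0465 and 0.0721), and r = -0.62 without Mouse_134 and Mouse_96.

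Smad1 and Smad7 ran against the macrophage markers. For Smad1 r was -0.65 and rho -0.69 (permutation p 0.00108 and 0.00057, adjusted 0.0465 and 0.0691), and for Smad7 r was -0.64 and rho -0.60 (permutation p 0.00125 and 0.00398, adjusted 0.0465 and 0.0772). Both kept this size without Mouse_26 and Mouse_134, at r = -0.68 and -0.69. Tgfbr2 followed the same markers with r = 0.62 and rho = 0.58 (permutation p 0.00203 and 0.00584, adjusted 0.0475 and 0.0772), and r = 0.48 without these tumours. Bmp4 and absorptive markers had r = -0.64 and rho = -0.52 (permutation p 0.00167 and 0.0141, adjusted 0.0475 and 0.119), and r = -0.41 without Mouse_134 and Mouse_96. The largest r of all did not pass: Bmp3 and the smooth muscle markers had r = 0.75 and rho = 0.23 (permutation p 0.0124 and 0.3, adjusted 0.114 and 0.657), and r = -0.06 without Mouse_134 and Mouse_125. The remaining 4 relations that passed by r were Tgfb1i1 with endothelial (0.61), Bmp7 with fibroblast (0.61), Smad5 with absorptive (-0.60) and Acvr2a with neutrophil markers (-0.60), each with an adjusted permutation p of 0.0475. Their rho values were 0.63, 0.54, -0.58 and -0.58, and r without the 2 farthest tumours was 0.64, 0.47, -0.56 and -0.61. With the group means subtracted, r ran from 0.55 to 0.69 for the 5 positive and from -0.72 to -0.59 for the 6 negative relations among the 11.

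**Figure D4:**
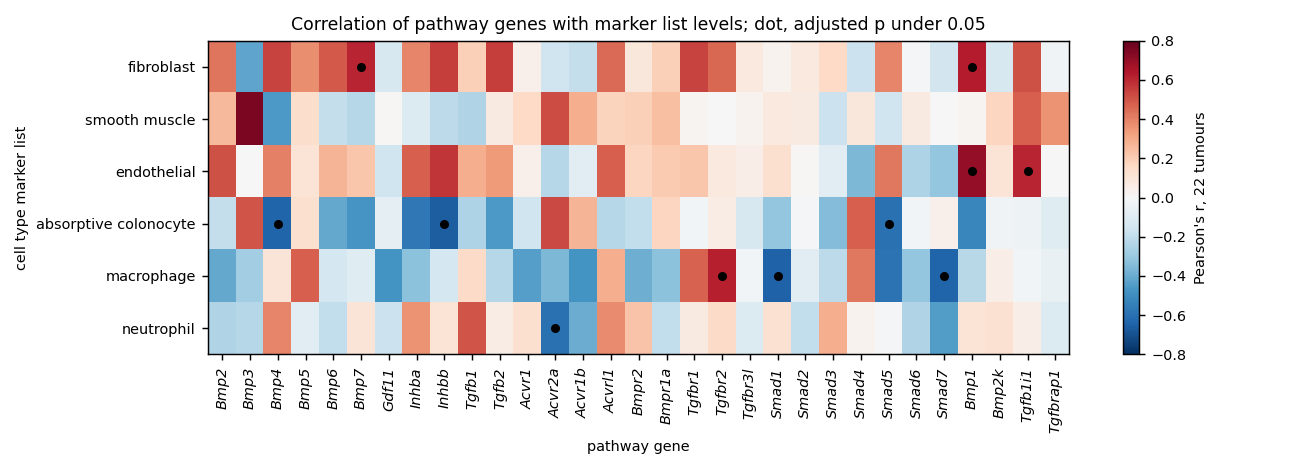
Pearson's r across 22 tumours between 31 pathway genes (columns) and the mean level of 6 cell type marker lists (rows), coloured from -0.8 to 0.8; dots mark the 11 relations with an adjusted permutation p under 0.05. Dots stand for example on Bmp1 with endothelial markers (0.70) and Inhbb with absorptive colonocyte markers (-0.66).

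Of 16 chosen pairs of pathway genes 0 passed an adjusted permutation p of 0.05 by r or by rho. The pair of inhibitory SMADs, Smad6 and Smad7, had r = 0.57 and rho = 0.45 (permutation p 0.00519 and 0.0365, adjusted 0.0569 and 0.138), and r = 0.28 without Mouse_146 and Mouse_X, so the relation rested on those tumours. Smad6 and the BMP target Id1 had r = 0.51 and rho = 0.45 (permutation p 0.0142 and 0.0342, adjusted 0.0569 and 0.138), and r = 0.52 without the same 2 tumours. The 2 activin subunit genes Inhba and Inhbb had r = 0.53 and rho = 0.55 (permutation p 0.0114 and 0.00926, adjusted 0.0569 and 0.138), and r = 0.37 without Mouse_140 and Mouse_96. Bmp4 and its antagonist Grem1 had r = 0.44 and rho = 0.47 (permutation p 0.0356 and 0.0274, adjusted 0.0951 and 0.138), and r = 0.62 without Mouse_134 and Mouse_101. The ligands Bmp2, Bmp4 and Bmp5 had r of -0.15, -0.21 and 0.18 with Id1, with permutation p of 0.464, 0.346 and 0.425 and adjusted p of 0.53, 0.503 and 0.524.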

How the data were processed

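The authors deposited processed levels, taken here to be log2, for 22203 probe sets on 22 Clariom S arrays, made by the authors from total RNA of 1 tumour each. Per the labels, RNA was isolated with TRIzol and prepared with the GeneChip WT PLUS kit. Transcriptome Analysis Console 4.0 was used, per the submitters' processing notes. How probes were summarized, corrected and normalized, and the log base, is not given in the sources used here. The range, 3.34 to 19.49, led to reading the base as 2. Such values do not show whether a single probe set exceeds background.

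Symbols came from the array annotation: 19572 probe sets had 1 symbol and 2631 are unnamed here. All 50 pathway genes matched the RefSeq table (GRCm38.p6). Groups came from the diet and sulindac labels. The labels give no batch and no shared numbers, and Mouse_X has no mouse number. Each other tumour has its own mouse number.

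A mean per group was fitted to all 22 arrays with limma 3.58.1 (lmFit, eBayes) in R 4.3.3, with two-sided p adjusted by Benjamini-Hochberg over 22203 probe sets and a threshold of 0.05. No filter was applied. Intervals are 95% intervals. In simulated obese against control data with 200 changed probe sets among 22203, 0%, 67% and 93% were recovered at changes of 0.5, 1 and 2 log2 units. Exact permutation tests, correlations (100000 permutations, scipy 1.17.1, numpy 2.4.6, pandas 2.3.3, Python 3.11.15) and figures (matplotlib 3.10.9) used the same levels. A list level averages the log2 levels of the measured markers.

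In each main comparison the text names the genes with an unadjusted p under 0.05, filled up to 8 by smallest p, and always Bmp2, Bmp4, Inhba, Tgfb1 and Smad7. It gives tumour levels and exact permutation p values for the first 5. In the other comparisons it names those with an unadjusted p under 0.05. Other genes of the pathway are named, up to 5 a comparison, by the same threshold, and always Tgfb3, Grem1 and Id1. Any further gene, and the tumours named for their ligand levels, were chosen after their values were seen. The 50 genes, the lists, the pairs and the tests were chosen with earlier results of these data known. Alternatives were quantile normalization, a filter at the median level, a trended robust prior, array weights, only the compared groups, other probe set averaging, exact tests and leaving out each mouse.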

Additional observations from a re-analysis of the deposited data

Results flagged for a closer look

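Within each group, the highest or lowest tumour of a pathway gene was set apart where its gap to the next tumour took up most of the group's range, by Dixon's test at 95%. Of 200 groups of levels (50 genes in 4 groups) 17 met this, where chance alone gives about 1 in 20, or 10. Of the 17 tumours set apart 14 were high and 3 low.

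Among ligands, Bmp3 was 12 in formerly obese Mouse_134, beside 7.06 to 7.17 in the other 4 tumours. The same tumour had the low Bmp4 value of 10.41, beside 12.13 to 12.72. Bmp2 was 9.85 in formerly obese Mouse_140, beside 6.93 to 7.64. Inhba was 13.65 in obese sulindac Mouse_114, beside 10.85 to 11.52, and Bmp8b was 7.93 in obese sulindac Mouse_124, beside 5.70 to 6.33. Bmp8b was also high, at 9.72, in control Mouse_30. In obese Mouse_101 Bmp4 was low at 11.32, beside 12.76 to 13.14.

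Dim ligand genes set apart were Gdf3 at 4.62 in formerly obese Mouse_152 and at 4.87 in obese Mouse_109, Gdf10 at 5.02 in control Mouse_32 and Gdf2 at 4.52 in control Mouse_20. Their gaps to the next tumour were 0.21, 0.49, 0.76 and 0.29 log2 units.

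Among receptors, control Mouse_20 was high for Acvr1b at 9.95 and for Acvr1c at 6.01, and obese Mouse_101 was high for Acvr1c at 5.89. The type II receptor Bmpr2 was 14.46 in obese Mouse_96, beside 13.35 to 13.65. Formerly obese Mouse_152 was high for Tgfbr3l at 7.96, and formerly obese Mouse_146 was low for Bmpr1b at 4.42. Control Mouse_20 was set apart for 3 genes and obese Mouse_101, formerly obese Mouse_134 and formerly obese Mouse_152 for 2 each. No SMAD gene was among the 17.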

How the results depend on the processing

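The count of pathway genes past the adjusted threshold was 0 in every comparison under all alternatives run. Over all probe sets it was 0 to 1 for obese sulindac against obese tumours and 0 to 1 for formerly obese against control tumours when single mice were left out, the 1 coming without Mouse_96 and without Mouse_152. At the unadjusted threshold, leaving out single mice gave 0 to 4 genes of 50 for obese against control, 2 to 7 for formerly obese against obese and 0 to 5 for obese sulindac against obese tumours; without Mouse_134 the second was 2, beside 4.54% of all probe sets. The tallies without single mice, and those of the genes named only in other comparisons, were added after seeing the data. Of the alternative values for named genes 1064 kept their direction and 15 did not, and the cause was not tested. The alternatives reuse the same arrays, and most of these genes were named for their small p. A kept direction was therefore likely from the start and adds little evidence. With array weights Bmp4 differed by -0.03 in obese against control and Smad7 by -0.01 in obese sulindac against obese tumours. Without single mice, Bmp4 ranged from -0.11 to 0.34 and Inhba from -0.24 to 0.52 in obese against control tumours, Bmp2 from -0.24 to 0.49 in formerly obese against obese tumours, and Bmp2 from -0.10 to 0.26 and Smad7 from -0.18 to 0.23 in obese sulindac against obese tumours. No paired analysis was possible because the groups share no mouse numbers. In simulated obese against control data no change of 0.5 log2 units was recovered, so a difference of that size was not detectable in that comparison; the other comparisons were not simulated.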
